A study of Mus musculus with 5 samples.

Results

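Genes of 10 milk proteins were chosen by their symbols: *Csn1s1*, *Csn1s2a*, *Csn2*, *Csn3*, *Lalba*, *Wap*, *Wfdc18*, *Spp1*, *Trf* and *Mfge8*. They are 10 of the 27998 genes in the count tables. Their UMIs (unique molecular identifiers, 1 for each captured RNA molecule) were followed through the alveolar, hormone-sensing, mixed luminal and basal barcodes of 5 single-cell libraries of mouse mammary gland. Fibroblast barcodes, which should hold little milk protein RNA of their own, served as a gauge of free RNA. A level is given as CPM, the summed UMIs of a gene in a class of barcodes scaled to a common total for each class and library. Since the reads count 3′ ends of molecules, it was not scaled by gene length.

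Milk proteins are made by luminal alveolar cells, where prolactin, acting through STAT5, switches their genes on in pregnancy and lactation. Caseins form the micelles that carry calcium, with κ-casein on the micelle surface, and α-lactalbumin is the regulatory subunit of lactose synthase. Several other milk proteins, among them transferrin, osteopontin and MFG-E8, are also made outside the mammary gland, and some milk protein genes are already transcribed in the virgin gland.

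All 5 libraries came from ovariectomized female BALB/cj mice labelled as 30 weeks old. Treatment began 20 weeks after ovariectomy and lasted 1 week. OVX received the DMSO vehicle. OVX_E2 received 1 µg of 17β-estradiol (E2) per animal each day by intraperitoneal injection, and OVX_E2_P4 received in addition 0.1 mg of progesterone (P4). OVX_E2_PBDE and OVX_E2_P4_PBDE received the same hormones and food with polybrominated diphenyl ethers (PBDEs, flame retardants), at 7.1 mg/kg of BDE-47, 0.4 mg/kg of BDE-100 and 0.9 mg/kg of BDE-153. The other mice ate matched food with DMSO. No library came from a pregnant or lactating mouse, and no prolactin was given. Each group is 1 library, and how many mice went into it was not stated, so no test between groups was possible. The intervals below are exact 95% intervals that cover counting error only.

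The 5 libraries held 14317 barcodes after filtering, between 2229 and 3526 each, with 19982067 to 42012988 UMIs per library. Pairs of libraries shared between 3 and 15 barcodes, at most 0.483% of the smaller library. Alveolar, hormone-sensing and basal barcodes were named from marker genes that include none of the 10 members, and the members were also kept out of the clustering. The alveolar-like class held 1081 barcodes, with only 32 from OVX and 579 from OVX_E2_P4, against 143 from OVX_E2, 203 from OVX_E2_PBDE and 124 from OVX_E2_P4_PBDE. Its 6 alveolar markers, led by *Plet1* and *Cd14*, summed to between 2874 and 5638 CPM, and the 6 hormone-sensing markers to between 64.6 and 318 CPM. The mixed luminal barcodes carried both sets, with median UMIs of 15357 to 25546 per barcode against 5512 to 11571 in alveolar barcodes, and their median doublet score from Scrublet was above that of alveolar barcodes in the 4 libraries with estradiol (0.183 to 0.292 against 0.0519 to 0.102) and below it in OVX (0.116 against 0.126). Whether each is a single cell cannot be told apart from these values. Some limits of the naming were set after the clusters had been seen.

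The gene starts differ in the letters just before them. The 250 bases upstream of the start in RefSeq (GRCm38.p6) are shown for 4 members, 2 caseins that were near or below detection here and 2 milk proteins that were plainly detected, 5′ to 3′ on the strand of the gene. Capitals mark TTCNNNGAA, the palindrome that STAT proteins are known to bind, or TATAAA, the TATA box.
Csn1s1 (chr5:87665958-87666207, plus strand): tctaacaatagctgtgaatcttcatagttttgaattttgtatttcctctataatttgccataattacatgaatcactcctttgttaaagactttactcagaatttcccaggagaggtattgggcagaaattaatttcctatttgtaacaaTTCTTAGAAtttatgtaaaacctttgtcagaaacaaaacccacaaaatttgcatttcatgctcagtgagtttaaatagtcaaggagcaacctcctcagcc
Csn2 (chr5:87699426-87699675, minus strand): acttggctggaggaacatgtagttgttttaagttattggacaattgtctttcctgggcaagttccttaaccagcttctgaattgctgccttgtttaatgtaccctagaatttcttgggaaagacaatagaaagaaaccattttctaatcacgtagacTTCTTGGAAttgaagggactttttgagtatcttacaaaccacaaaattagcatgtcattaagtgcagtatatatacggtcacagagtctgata
Wfdc18 (chr11:83708754-83709003, plus strand): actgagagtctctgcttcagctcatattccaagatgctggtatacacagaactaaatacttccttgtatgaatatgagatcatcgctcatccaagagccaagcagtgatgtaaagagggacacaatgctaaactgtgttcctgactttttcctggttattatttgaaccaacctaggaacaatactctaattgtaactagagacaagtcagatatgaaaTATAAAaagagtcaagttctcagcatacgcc
Lalba (chr15:98482684-98482933, minus strand): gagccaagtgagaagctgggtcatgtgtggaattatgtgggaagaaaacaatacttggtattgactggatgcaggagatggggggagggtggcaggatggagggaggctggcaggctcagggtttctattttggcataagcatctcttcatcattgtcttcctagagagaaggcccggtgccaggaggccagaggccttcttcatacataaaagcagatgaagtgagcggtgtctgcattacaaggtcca
TTCNNNGAA, which reads the same on both strands, began 100 bases upstream of *Csn1s1* and 93 bases upstream of *Csn2*, and was in none of the other 6 members with a RefSeq entry. It was held by 7.02% of 32851 windows of that length, so a match is no rarity. The *Lalba* window holds neither motif. TATAAA, searched on both strands, began 31 bases upstream of *Wfdc18* and 211 bases upstream of *Spp1*, and 12.4% of all windows held it. A match describes these letters only. The windows of *Csn2* and *Lalba* lie partly inside the genes as GENCODE M21 draws them. *Csn3* and *Trf* have no entry.

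The 4 casein genes lie together on chromosome 5, and of them *Csn3* alone was abundant. *Csn1s1* (ENSMUSG00000070702), *Csn2* (ENSMUSG00000063157), *Csn1s2a* (ENSMUSG00000061937) and *Csn3* (ENSMUSG00000001622) span 266.458 kb in GRCm38, from 87666208, the start of *Csn1s1*, to 87932665, the end of *Csn3*. That span holds 7 protein-coding genes. In alveolar barcodes of the 5 libraries together, *Csn3* had 29706 UMIs, a level of 2351 CPM. *Csn1s2a* had 96 UMIs (7.60 CPM), *Csn1s1* had 19 UMIs (1.5 CPM) and *Csn2* had none. *Csn1s2b*, a further casein gene between *Csn1s2a* and *Csn3*, had 56 alveolar UMIs (4.43 CPM), and *Odam*, in the same span, had 2. The genes of this locus therefore differed widely in level in the same barcodes.

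*Csn3*, which encodes κ-casein, was abundant in alveolar barcodes of every library. Its alveolar level was highest in OVX, at 4273 CPM, and lowest in OVX_E2, at 1698 CPM, with 2347 CPM in OVX_E2_PBDE, 2494 CPM in OVX_E2_P4 and 2298 CPM in OVX_E2_P4_PBDE. OVX stood above the other 4 libraries, and OVX_E2 below them, by more than the counting intervals (4012 to 4548 CPM in OVX, 1641 to 1756 in OVX_E2). OVX_E2_PBDE and OVX_E2_P4_PBDE had overlapping intervals (2291 to 2403 and 2208 to 2390). Fibroblast barcodes of the same libraries had between 10.5 and 80.6 CPM. After each barcode was thinned to 3000 UMIs, 86.7% to 96.9% of alveolar barcodes held a *Csn3* UMI, against 3.51% to 20.3% of fibroblast barcodes, with median depths of 5512 to 11571 and 4252 to 7032 UMIs before thinning. Without thinning the shares were 93.7% to 97.0% and 5.38% to 33.1%.

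The calcium-sensitive caseins were sparse. *Csn1s2a*, an αS2-like casein, had most of its alveolar UMIs in OVX_E2_P4, with 51, then 21 in OVX_E2_PBDE, 13 in OVX_E2_P4_PBDE, 9 in OVX_E2 and 2 in OVX, which are levels of 4.5 to 12.1 CPM. Fibroblast barcodes held no *Csn1s2a* UMI in any library, and alveolar and mixed luminal barcodes together held 200 of its 224 UMIs. *Csn1s1*, the αS1-casein gene, had 13 alveolar UMIs in OVX_E2_P4, 5 in OVX_E2_PBDE, 1 in OVX_E2_P4_PBDE and 0 in both OVX and OVX_E2. Of its 65 UMIs in all barcodes, 19 were in alveolar, 26 in mixed luminal and 18 in proliferating epithelial barcodes. OVX_E2 held 6 of those in proliferating epithelial barcodes. In OVX, with 32 alveolar barcodes, a sum of 0 allows up to 12.9 CPM, so an absence there says little. *Csn2*, the β-casein gene, had 1 UMI among all 14317 barcodes, in a mixed luminal barcode of OVX_E2_P4. Its alveolar sum of 0 allows up to 0.464 CPM in OVX_E2_P4, the library with the most alveolar UMIs.

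*Lalba* (ENSMUSG00000022991, chr15:98480400-98482721), the gene of α-lactalbumin, was at an intermediate level. Alveolar barcodes of OVX held 67 UMIs (288 CPM), those of OVX_E2 161 (80.5 CPM), those of OVX_E2_PBDE 391 (137 CPM), those of OVX_E2_P4 1363 (211 CPM) and those of OVX_E2_P4_PBDE 311 (289.7 CPM). The 2 libraries with progesterone lay above the 2 with estradiol and no progesterone, and OVX lay as high as OVX_E2_P4_PBDE. Fibroblast barcodes had 0 to 2.51 CPM. At 3000 UMIs per barcode, *Lalba* was found in fewest alveolar barcodes in OVX_E2 (9.79%) and OVX_E2_PBDE (17.2%) and in more in OVX (21.9%), OVX_E2_P4 (22.5%) and OVX_E2_P4_PBDE (25.0%), and in at most 0.842% of fibroblast barcodes of any library. Without thinning, at the median depths given above, the alveolar shares were 25.9% to 37.9% and the fibroblast shares at most 1.16%.

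The members with a WAP domain differed in level. *Wfdc18* (ENSMUSG00000000983, chr11:83709015-83711348), a small secreted protein with a WAP four-disulfide core, had its highest alveolar level in OVX_E2_P4, at 2539 CPM, followed by 2315 CPM in OVX, 2036 CPM in OVX_E2_PBDE, 1734 CPM in OVX_E2_P4_PBDE and 1621 CPM in OVX_E2. *Wap* (ENSMUSG00000000381, chr11:6635482-6638637), whey acidic protein itself, had 8 alveolar UMIs in OVX_E2_P4, 6 in OVX_E2_PBDE, 1 in OVX_E2 and 0 in both OVX and OVX_E2_P4_PBDE, and 37 UMIs in all barcodes of the series. Alveolar and mixed luminal barcodes held 35 of those 37 UMIs, and proliferating epithelial barcodes the other 2.

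Osteopontin, transferrin and MFG-E8 completed the abundant members. *Spp1* (ENSMUSG00000029304, chr5:104435118-104441050), the gene of the secreted phosphoprotein osteopontin, had 3008 CPM in alveolar barcodes of OVX, 1133 CPM with estradiol alone (OVX_E2), 1951 CPM in OVX_E2_PBDE, 2301 CPM in OVX_E2_P4 and 1770 CPM in OVX_E2_P4_PBDE. *Trf* (ENSMUSG00000032554, chr9:103204001-103230444), which encodes the iron carrier transferrin, had 6253, 3415, 3132, 3019 and 2862 CPM in the same order. *Trf* was the member with the highest alveolar level in each of the 5 libraries, and in the 4 libraries with estradiol its level lay between 2862 and 3415 CPM. *Mfge8* (ENSMUSG00000030605, chr7:79133768-79149060), which encodes a protein of the milk fat globule membrane that also bridges apoptotic cells to phagocytes, had 2612, 1356, 1619, 1823 and 1540 CPM. The 10 members together made up 1.88% of all UMIs of alveolar barcodes in OVX and between 0.931% and 1.24% in the other 4 libraries.

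**Figure D1:**
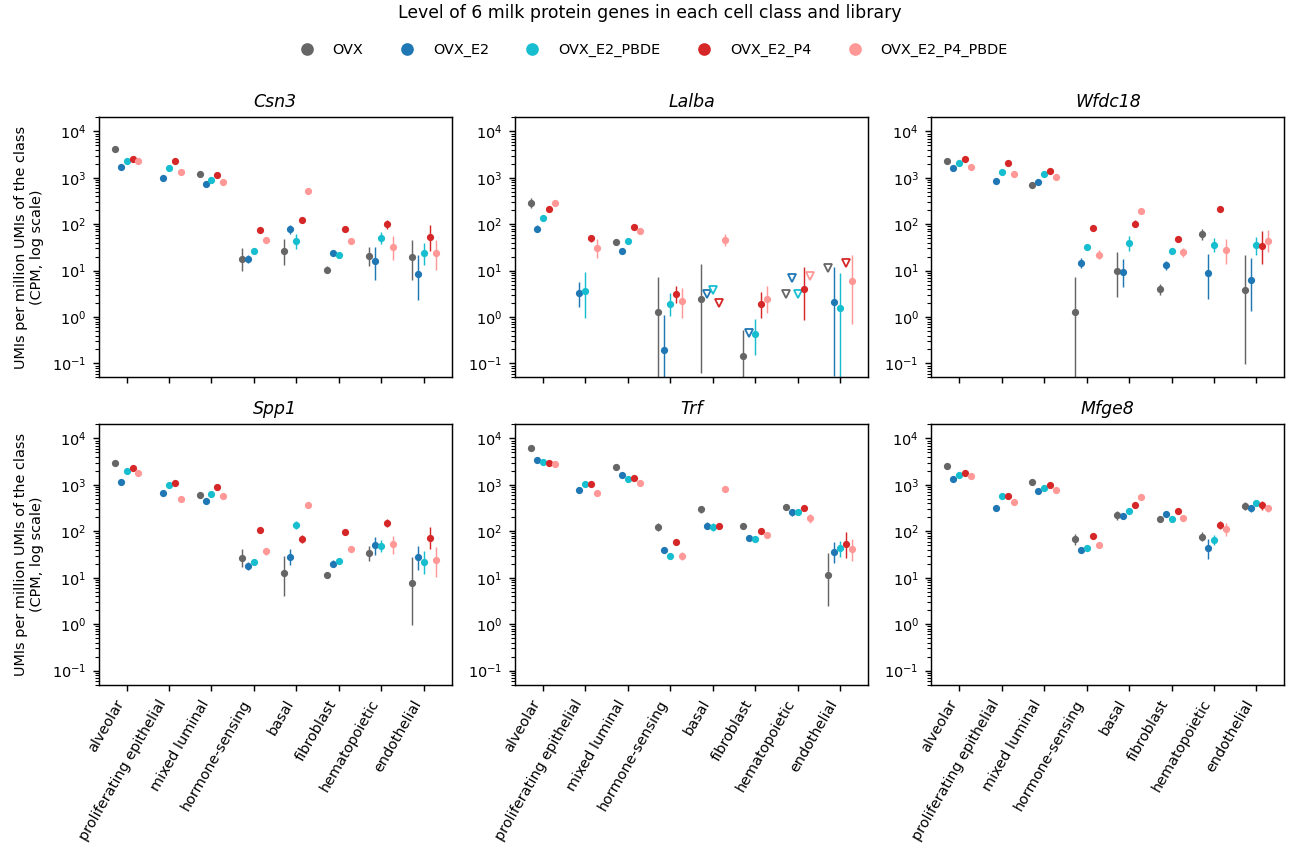
Levels of 6 milk protein genes (CPM, log axis) in each cell class, with 1 point per library and exact 95% Poisson intervals, the longest of which run past the lower end of the axis. Open triangles mark the level of 3 UMIs where none was counted. The alveolar points of *Csn3* lie between 1698 and 4273 CPM and its fibroblast points between 10.5 and 80.6 CPM.

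Next, alveolar barcodes were compared with hormone-sensing barcodes of the same libraries, the luminal lineage that carries the estrogen and progesterone receptors. With the 5 libraries summed, *Lalba* was 92.5-fold higher in alveolar barcodes (69.3 to 126), *Csn1s2a* 91.0-fold (24.5 to 762), *Trf* 72.6-fold (68.3 to 77.3), *Csn3* 54.7-fold (51.4 to 58.3), *Wfdc18* 53.6-fold (50.3 to 57.2), *Spp1* 41.0-fold (38.7 to 43.6) and *Mfge8* 30.3-fold (28.7 to 32.1). These are the 7 members with at least 50 UMIs over both classes. Of them 7 of 7 were at least 2-fold higher, where 11.5% of all 11597 genes tested were at least 2-fold higher and 15.6% at least 2-fold lower. *Csn1s2a* (96 alveolar and 2 hormone-sensing UMIs) and *Lalba* (2293 and 47) reached 50 UMIs only through the alveolar class, so that limit favoured a higher level there. The other members of the 7 passed it in hormone-sensing barcodes alone. *Csn1s1*, *Wap* and *Csn2* had too few UMIs for a ratio. The smallest ratio of *Csn3*, *Lalba*, *Wfdc18*, *Spp1*, *Trf* or *Mfge8* in any single library was 21.9, for *Spp1* in OVX_E2_P4.

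What hormone-sensing barcodes held of *Csn3* was near the fibroblast gauge. Hormone-sensing barcodes of OVX had 18.1 CPM of *Csn3* where fibroblast barcodes had 10.5, those of OVX_E2 had 18.1 against 24.3, those of OVX_E2_PBDE 27.1 against 21.6, those of OVX_E2_P4 76.9 against 80.6 and those of OVX_E2_P4_PBDE 45.8 against 44.6. Both were highest in OVX_E2_P4, the library with the most alveolar barcodes. The ratio of both was between 0.742 and 1.73, *Spp1* stood at 0.890 to 2.39 times the fibroblast level and *Wfdc18* at 0.323 to 1.73 times. Levels whose interval reached the gauge are not set apart from free RNA by these counts, and whether they are expression was not tested. The intervals lay above it for *Csn3* in OVX_E2_PBDE (1.05 to 1.51), for *Spp1* in OVX (1.44 to 3.79) and for *Wfdc18* in OVX_E2_PBDE (1.03 to 1.44) and OVX_E2_P4 (1.5 to 2.01). Of the ratios with an interval above the gauge, that of *Lalba* in OVX_E2_PBDE was the highest, at 4.63 times the fibroblast level (1.67 to 14.7). It rested on 14 UMIs in hormone-sensing barcodes, at 1.43% of the alveolar level. In the other 4 libraries the interval of *Lalba* reached the gauge, also in OVX, where 1 UMI gave 8.89 times (0.151 to 171). *Trf* and *Mfge8* were lower in hormone-sensing than in fibroblast barcodes in each library, at 0.342 to 0.958 and 0.164 to 0.366 times the fibroblast level, the upper bound for *Trf* in OVX reaching 1.18.

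**Figure D2:**
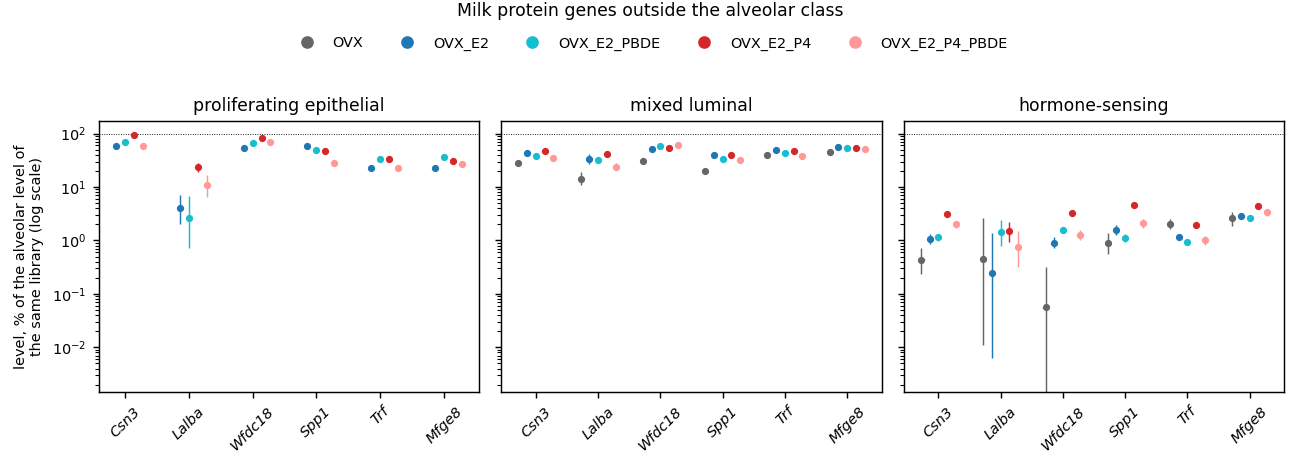
Level of 6 milk protein genes in proliferating epithelial, mixed luminal and hormone-sensing barcodes as a percentage of the alveolar level of the same library (log axis), with 1 point per library and exact 95% intervals. OVX has no proliferating epithelial class. Hormone-sensing points of *Csn3* lie between 0.424% and 3.08%, mixed luminal points between 28.2% and 47.0% and proliferating points between 57.6% and 93.3%.

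Mixed luminal barcodes carried the members at intermediate levels. *Csn3* stood at 47.0% of the alveolar level in OVX_E2_P4, 43.3% in OVX_E2, 37.8% in OVX_E2_PBDE, 34.6% in OVX_E2_P4_PBDE and 28.2% in OVX. *Lalba* stood at 14.4% to 40.8%, *Spp1* at 20.1% to 39.9%, *Trf* at 38.7% to 48.5%, *Mfge8* at 44.4% to 55.6% and *Wfdc18* at 30.3% to 60.2%. These barcodes were deeper than alveolar barcodes and, in each library but OVX_E2_P4, more numerous. They contributed 48.2% of all *Csn3* UMIs of the series, more than the 34.4% from alveolar barcodes. Fewer expressing cells behind a barcode class and less RNA per cell cannot be told apart in such sums.

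Proliferating epithelial barcodes separated *Lalba* from *Csn3*. In the 4 libraries that have the class, *Csn3* in OVX_E2 was at 59.0% of the alveolar level, followed by OVX_E2_PBDE with 69.8%, OVX_E2_P4 with 93.3% and OVX_E2_P4_PBDE with 57.6%, and *Wfdc18* at 54.0% to 83.3%. *Lalba* was at 4.00%, 2.62%, 23.7% and 10.7% in the same order. The intervals of *Lalba* (up to 28.7% in OVX_E2_P4) lay below those of *Csn3* in each of the 4 libraries. *Lalba* UMIs per *Csn3* UMI were thus 0.0474 in alveolar and 0.00321 in proliferating barcodes of OVX_E2, and 0.0844 and 0.0214 in those of OVX_E2_P4. *Spp1* (27.7% to 58.4%), *Trf* (22.4% to 33.9%) and *Mfge8* (22.9% to 36.1%) lay in between. Hormone-sensing markers summed to 1629 to 3068 CPM in these barcodes and alveolar markers to 968 to 1665 CPM, so the class carried both sets. Its median depths were 13622 to 28505 UMIs. Cells of both lineages and barcodes that each hold both sets cannot be told apart in these sums.

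Basal barcodes, the myoepithelial layer, showed a library that stood apart. *Csn3* had 518 CPM in basal barcodes of OVX_E2_P4_PBDE, against 124 CPM in OVX_E2_P4, 78.0 CPM in OVX_E2, 43.3 CPM in OVX_E2_PBDE and 27.1 CPM in OVX. *Lalba* had 44 UMIs in basal barcodes of OVX_E2_P4_PBDE, 18.5 times the fibroblast level (9.17 to 41.2), against 1 UMI in those of OVX and 0 in the other 3 libraries. In OVX_E2_P4_PBDE *Csn3* was 11.6 times the fibroblast level (9.77 to 13.9), and *Trf* 9.71 times, *Spp1* 8.76 times, *Wfdc18* 7.81 times and *Mfge8* 2.84 times. In the other 4 libraries *Csn3* was 1.53 to 3.2 times and *Trf* 1.26 to 2.26 times the fibroblast level, and the remaining high value was that of *Spp1* in OVX_E2_PBDE, at 6.08 times (4.84 to 7.58). Marker genes of other classes moved with it, since in basal barcodes of OVX_E2_P4_PBDE the 6 alveolar markers summed to 842 CPM (74.0 to 261 in the others), the 6 hormone-sensing markers to 758 CPM (37.0 to 268) and the 7 basal markers to 5959 CPM (10707 to 15218). No marker of either luminal list was at 0 there, and their part in the result was not tested.

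Outside the epithelium, several members stood above the fibroblast level in other cell types. Hematopoietic barcodes had 190 to 328 CPM of *Trf*, which was 2.25 to 3.66 times the fibroblast level with lower bounds of at least 1.73. Hematopoietic barcodes of OVX also had 60.2 CPM of *Wfdc18*, 15.0 times the fibroblast level (10.2 to 22.2), and those of OVX_E2_P4 213 CPM, 4.47 times (3.64 to 5.46), where the other 3 libraries had 9.04 to 36.1 CPM. Hematopoietic *Spp1* was at 2.97 times the fibroblast level in OVX, 2.49 times in OVX_E2, 2.14 times in OVX_E2_PBDE and 1.6 times in OVX_E2_P4, each with an interval above 1, and at 1.27 times in OVX_E2_P4_PBDE (0.765 to 2.0). Hematopoietic *Csn3* was above it in OVX, at 2.01 times (1.19 to 3.23), and in OVX_E2_PBDE, at 2.34 times (1.7 to 3.18). Markers shared by both luminal lineages summed to 975 CPM in hematopoietic and 398 CPM in fibroblast barcodes of OVX_E2_PBDE. They summed to 1585 and 853 CPM in OVX_E2_P4, 904 and 589 in OVX_E2_P4_PBDE, and 290 and 203 in OVX. In OVX_E2 they were lower in hematopoietic barcodes, at 452 and 531 CPM. The separate marker sets of both lineages were higher in hematopoietic than in fibroblast barcodes of every library. Hormone-sensing markers summed to 167 to 581 CPM in hematopoietic and 74.3 to 278 CPM in fibroblast barcodes. Alveolar markers, *Cd14* among them, summed to 562 to 1261 CPM and 159 to 272 CPM. The part of luminal RNA in these hematopoietic levels was not tested. Endothelial barcodes had 311 to 412 CPM of *Mfge8*, 1.33 to 2.20 times the fibroblast level. Fibroblast barcodes themselves had 184 to 267 CPM of *Mfge8*, 7.03% to 17.5% of the alveolar level, where *Csn3* had at most 3.23%. Fibroblast barcodes are for that reason no clean gauge of free RNA for *Mfge8*, while for *Lalba* they held at most 0.927% of the alveolar level. *Trf* UMIs per *Csn3* UMI were 12.5 in fibroblast barcodes of OVX and 1.27 to 3.23 in those of the other libraries. Alveolar barcodes had 1.21 to 2.01. Ratios of *Trf* over the fibroblast level, most of all in OVX, cannot be read as ratios over free RNA alone.

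Progesterone was then compared with its absence in alveolar barcodes, once without and once with PBDEs. Without PBDEs, OVX_E2_P4 over OVX_E2, *Lalba* was 2.62-fold higher (2.22 to 3.10), *Spp1* 2.03-fold (1.94 to 2.12), *Wfdc18* 1.57-fold (1.51 to 1.63), *Csn3* 1.47-fold (1.42 to 1.53) and *Mfge8* 1.34-fold (1.29 to 1.40). *Trf* was lower, at 0.884 (0.860 to 0.909), and *Csn1s2a* stood at 1.75 with an interval from 0.854 to 4.04. Of 7 members with at least 50 UMIs, 2 (*Lalba* and *Spp1*) were at least 2-fold higher and none lower, where 1.17% of the 8200 genes tested were at least 2-fold higher and 0.951% lower. *Spp1* lay so close to 2-fold that it fell below it when the fibroblast level was subtracted or barcodes were weighted equally. The median ratio of the 7 members was 1.57, and that of all genes tested was 0.933.

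With PBDEs, OVX_E2_P4_PBDE over OVX_E2_PBDE, only *Lalba* among these members was higher. It was 2.12-fold higher (1.82 to 2.46), where *Csn3* stood at 0.979 (0.935 to 1.03), *Mfge8* at 0.951 (0.898 to 1.01), *Trf* at 0.914 (0.877 to 0.952), *Spp1* at 0.907 (0.861 to 0.956) and *Wfdc18* at 0.852 (0.808 to 0.898). So 1 of 6 members with at least 50 UMIs was at least 2-fold higher and none lower, against 0.933% of the 5576 genes tested that were higher and 1.63% lower. The median ratio of the 6 was 0.932, and that of all genes 0.997. *Lalba* thus had a ratio above 2 in both pairs of libraries, which share no library. In OVX_E2_P4_PBDE a single barcode held 61 of 311 *Lalba* UMIs (19.6%). Without the barcode with the most *Lalba* UMIs in each library, the ratio was 3.24 without PBDEs and 1.92 with PBDEs, so that the latter was no longer past 2-fold. Mixed luminal barcodes gave 3.19 (2.77 to 3.68) without and 1.58 (1.42 to 1.77) with PBDEs for *Lalba*, and 2.07 and 0.875 for *Spp1*.

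**Figure D3:**
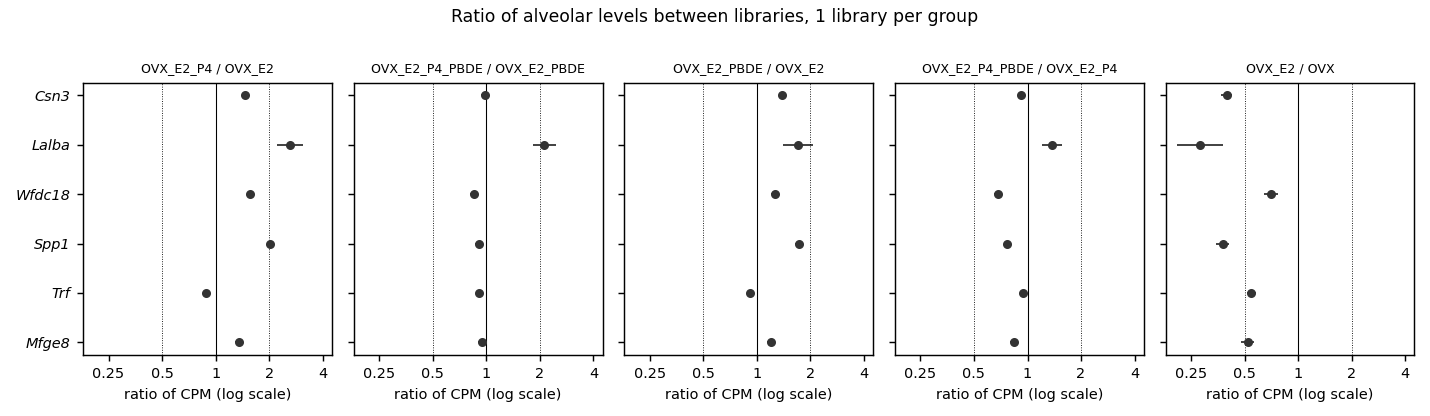
Ratios of alveolar levels between libraries (log axis) for 6 milk protein genes, with exact 95% intervals of counting error. The progesterone ratio of *Lalba* is 2.62 without and 2.12 with PBDEs, and that of *Spp1* is 2.03 and 0.907. Ratios that use the same library are not independent.

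PBDEs were compared with matched food in the same alveolar barcodes, using the same 4 libraries in other pairs. Under estradiol alone, *Spp1* was 1.72-fold (1.64 to 1.81), *Lalba* 1.70-fold (1.41 to 2.05), *Csn3* 1.38-fold (1.33 to 1.44), *Wfdc18* 1.26-fold (1.2 to 1.31) and *Mfge8* 1.19-fold (1.14 to 1.25) higher with PBDEs, and *Trf* was at 0.917 (0.889 to 0.947). None of 6 was past 2-fold in either direction, against 0.603% of 6465 genes higher and 0.944% lower. Under estradiol and progesterone, *Lalba* was at 1.38 (1.21 to 1.56), *Csn1s2a* at 1.54 (0.767 to 2.87), *Trf* at 0.948, *Csn3* at 0.921, *Mfge8* at 0.844, *Spp1* at 0.769 and *Wfdc18* at 0.683 (0.651 to 0.717). None of 7 was past 2-fold, against 1.26% of 7833 genes higher and 4.16% lower. The library numbers set both PBDE libraries apart from the others. Whether they were prepared or sequenced as a separate batch was not stated, so PBDEs and a possible batch cannot be told apart.

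Estradiol was compared with vehicle, OVX_E2 over OVX, and in alveolar barcodes the members were lower. *Lalba* stood at 0.279 (0.209 to 0.377), *Spp1* at 0.377 (0.346 to 0.411), *Csn3* at 0.397 (0.370 to 0.427), *Mfge8* at 0.519 (0.475 to 0.568), *Trf* at 0.546 (0.516 to 0.578) and *Wfdc18* at 0.700 (0.639 to 0.768). Of the 6 members with at least 50 UMIs, 3 (*Lalba*, *Spp1* and *Csn3*) were at least 2-fold lower and none higher, against 5.99% of 4139 genes lower and 6.23% higher, and the median ratio was 0.454 against 0.922 for all genes. OVX had only 32 alveolar barcodes, and a single barcode held 34 of its 67 *Lalba* UMIs (50.7%) and a single barcode 315 of its 699 *Spp1* UMIs (45.1%). Without the top barcode of each library the ratios were 0.431 for *Lalba*, 0.642 for *Spp1* and 0.425 for *Csn3*, so that *Spp1* was no longer past 2-fold. Markers moved as well, the alveolar markers from 5638 CPM in OVX to 3896 in OVX_E2 the fibroblast markers from 1851 to 908 CPM and, in the other direction, the hormone-sensing markers from 64.6 to 318 CPM, and their part in the result was not tested.

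In mixed luminal barcodes, of which OVX had 163, the same comparison gave smaller differences. *Csn3* stood at 0.610 (0.588 to 0.633), *Lalba* at 0.650 (0.534 to 0.793), *Mfge8* at 0.651, *Trf* at 0.672, *Spp1* at 0.730 and *Wfdc18* at 1.19 (1.14 to 1.24). None of 6 was past 2-fold, where 4.0% of 10000 genes were at least 2-fold lower and 1.44% higher. In hormone-sensing barcodes 1 of 5 was at least 2-fold higher, *Wfdc18*, from 1 UMI in OVX to 74 in OVX_E2, and 1 lower, *Trf* at 0.318, against 2.51% of 7414 genes higher and 6.64% lower. In basal barcodes 1 of 3 was higher, *Csn3* at 2.88 with 11 UMIs in OVX, and 1 lower, *Trf* at 0.445, against 6.16% of 3066 genes higher and 8.12% lower. The levels behind the ratios called higher were low. Hormone-sensing *Wfdc18* stood at 0.323 and 1.14 times the fibroblast level in OVX and OVX_E2, and basal *Csn3* at 2.59 and 3.2 times. *Trf* was also lower in fibroblast barcodes, at 131 CPM in OVX and 72.4 CPM in OVX_E2. In the same order, hormone-sensing *Trf* stood at 0.958 and 0.551 times the fibroblast level, and basal *Trf* at 2.26 and 1.82 times. The part of free RNA in the lower *Trf* was not tested.

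**Figure D4:**
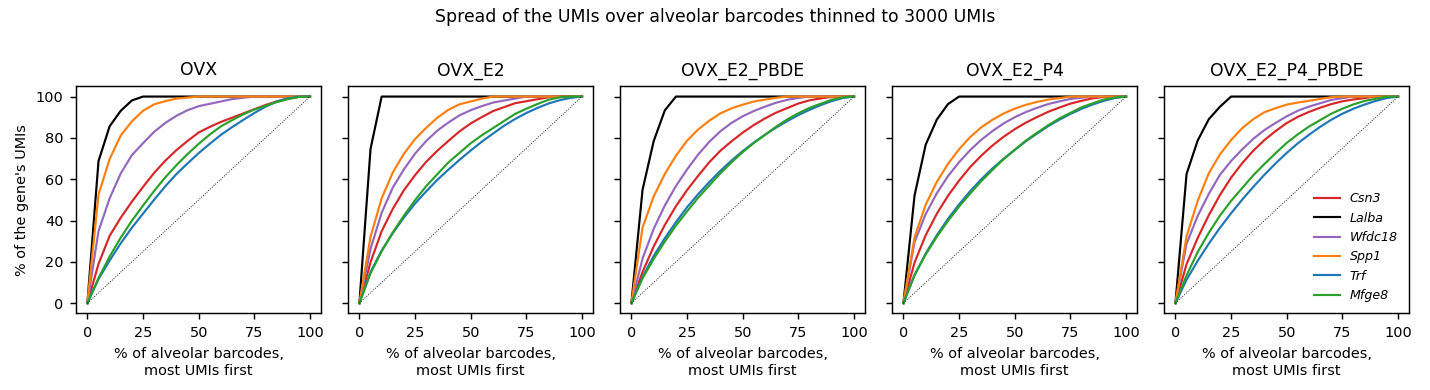
Cumulative share of the thinned UMIs of each milk protein gene over alveolar barcodes ranked from the barcode with the most, by library. At 10% of barcodes the curves read 76.7% to 100% of the *Lalba* UMIs and 20.5% to 25.5% of the *Trf* UMIs. Shares in the text count whole barcodes and differ slightly.

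The members differed in how evenly they were spread over alveolar barcodes. With each barcode thinned to 3000 UMIs, the 10% of barcodes with the most *Lalba* UMIs held all of them in OVX_E2 (100%), 84.4% in OVX, and between 76.7% and 77.9% in the other 3 libraries. For *Spp1* the top 10% held 47.7% to 68.1%, for *Wfdc18* 35.6% to 49.1% and for *Csn3* 27.1% to 34.3%. *Mfge8* (21.1% to 24.7%) and *Trf* (19.6% to 25.1%) were the most even of the 6 by this share. Their variance over mean was 1.73 to 3.72 for *Mfge8* and 2.64 to 7.27 for *Trf*, where even sampling would give about 1. In OVX_E2 that of *Trf* was 5.43, near the 5.60 of *Csn3*. *Trf* also had the highest means, at 8.55 to 21.6 UMIs. A rare gene is concentrated in part by counting alone. *Lalba* had a mean of 0.189 to 1.02 UMIs per thinned barcode, so its share in the top 10% is not comparable with the others. Its variance over mean was 2.68 in OVX_E2 to 16.6 in OVX_E2_P4_PBDE, also above the value of even sampling. *Spp1* and *Csn3* can be set side by side, at means of 3.67 to 10.5 and 5.22 to 12.2 UMIs, and *Spp1* had the higher variance over mean in each of the 5 libraries (10.1 to 72.7 against 4.65 to 10.7).

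Within alveolar barcodes, *Wfdc18* ran against *Spp1* and *Csn3*. Spearman's rho of the thinned UMIs over barcodes was below 0 for *Wfdc18* and *Spp1* in 5 of 5 libraries, with a median of -0.18 and a range from -0.59 in OVX (32 barcodes) to -0.16. For *Wfdc18* and *Csn3* it was below 0 in 5 of 5, from -0.51 to -0.06. *Csn3* and *Spp1* had a rho of 0.21 to 0.57, *Csn3* and *Trf* 0.20 to 0.42, and *Csn3* and *Lalba* 0.17 to 0.56. The barcodes of a library share its free RNA and a fixed total of 3000 UMIs, and these weak correlations are descriptions only.

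**Figure D5:**
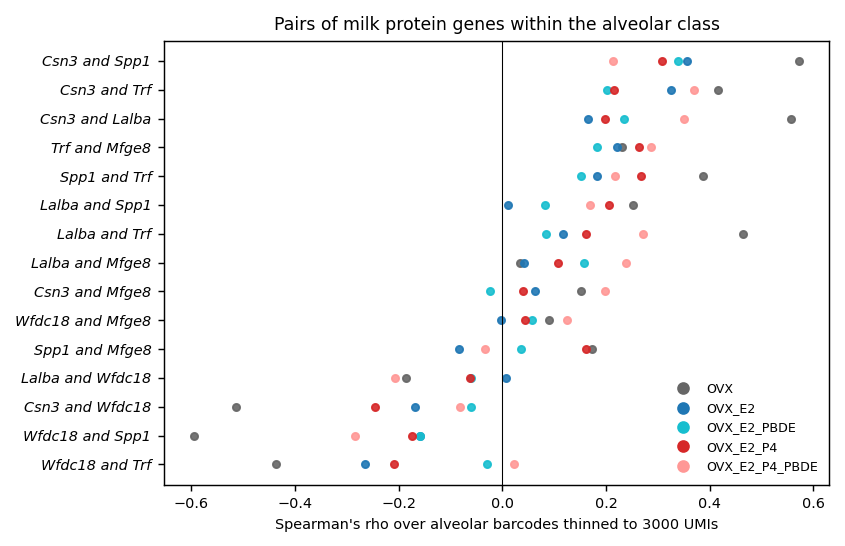
Spearman's rho between pairs of milk protein genes over alveolar barcodes, with 1 point per library (32 to 579 barcodes). Points of *Wfdc18* with *Spp1* lie between -0.59 and -0.16, those of *Csn3* with *Spp1* between 0.21 and 0.57.

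Likeness was measured across 40 sums of a class in a library, including the unnamed cluster of 24 barcodes in OVX_E2_P4_PBDE. By Pearson's r of log2(CPM + 1), *Csn3*, *Spp1* and *Wfdc18* had the most similar patterns to each other among 12298 genes. The r was 0.963 for *Csn3* with *Spp1*, 0.955 for *Csn3* with *Wfdc18* and 0.95 for *Wfdc18* with *Spp1*. Next came *Fcgbp* for *Csn3* (0.952) and *Spp1* (0.949), and *Plb1* for *Wfdc18* (0.947). The genes most like *Lalba* were *BC016548* (0.914), *Fcgbp* (0.912) and *Bglap3* (0.906), and those most like *Csn1s2a* were *BC016548* (0.904), *Lalba* (0.903) and *Spp1* (0.899). *Trf* was closest to *Fam83a* (0.916), *Clic6* (0.900) and *Barx2* (0.899), and *Mfge8* to *Phlda1* (0.916), *Chchd7* (0.907) and *Deptor* (0.907), with no member among the 3 nearest of either. The sums share libraries, and these values describe the difference between classes more than that between treatments.

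A list of 28 other genes of milk secretion and its control gives the setting. In the summed libraries 13 of the 22 with at least 50 UMIs were at least 2-fold higher in alveolar than in hormone-sensing barcodes and 3 lower, against the 11.5% and 15.6% of all genes given above, with a median ratio of 2.76 against 54.7 for the 7 members. *Lcn2*, the siderophore-binding lipocalin, was 48.1-fold higher, *Btn1a1*, the butyrophilin of the milk fat globule, 48.0-fold, *Cel*, the bile salt-stimulated lipase of milk, 37.6-fold, *Ltf*, lactoferrin, 32.2-fold and *Elf5*, a transcription factor of alveolar fate, 25.0-fold. The 3 of 22 that were lower are no excess, with 15.6% of all genes lower. *Prlr*, the prolactin receptor, had 106 CPM in alveolar and 1663 CPM in hormone-sensing barcodes. *Jak2* had 11.7 and 34.1 CPM and *Stat5a* 13.6 and 52.9 CPM. The other prolactin signalling genes of the list, *Stat5b*, *Cish* and *Socs2*, were not among those 3. Between these classes, alveolar barcodes thus had the higher levels of the 7 members, and hormone-sensing barcodes the higher level of *Prlr*. *Glycam1* and *Lpo* had no UMI in alveolar barcodes of any library.

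In each progesterone and PBDE comparison, at most 1 gene of the list was past 2-fold in alveolar barcodes, while estradiol against vehicle moved more of them. With progesterone and without PBDEs none of 20 genes with at least 50 alveolar UMIs was past 2-fold, where 1.17% of all genes were higher and 0.951% lower. With progesterone and PBDEs 1 of 18 was higher, *Cidea* at 2.19, where 0.933% of all genes were higher and 1.63% lower. The median ratios of the list were 1.07 and 1.21. With PBDEs against matched food 1 of 20 was lower under estradiol, *Cidea* at 0.5, where 0.944% of all genes were lower. Under estradiol and progesterone 1 of 20 was lower, *Stat5a* at 0.451 with 8 UMIs in OVX_E2_P4_PBDE, where 4.16% of all genes were lower. With estradiol against vehicle 2 of 15 were higher, *Cel* at 3.72 and *Prlr* at 2.56. Another 3 were lower, *Ltf* at 0.241 (0.213 to 0.273), *Xdh* at 0.433 and *Cidea* at 0.494. Of all genes 6.23% were higher and 5.99% lower. In this comparison 12 of the 15 had a ratio below 1, and their median ratio was 0.592 against 0.922 for all genes. *Ltf*, at 1657 CPM in OVX and 352 to 645 CPM in the other libraries, had its highest alveolar level in the same library as *Csn3*, *Spp1*, *Trf* and *Mfge8*. *Lcn2* stayed between 2857 and 3174 CPM in all 5.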

How the data were processed

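Mammary glands of ovariectomized mice were dissociated, and 10x Genomics 3′ libraries of unsorted live cells were sequenced, 1 for each of 5 treatments. The authors deposited UMI counts per gene and barcode, made with Cell Ranger 2.0.0 against mm10, as filtered matrices with no cell annotation. Samples were grouped by their treatment labels. Multimapping reads are not counted by this tool, which can lower genes with close copies.

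Barcodes with at least 500 genes, at least 1000 UMIs and at most 10% mitochondrial UMIs were kept. Each library was clustered on its own in Seurat 5.3.0 (R 4.3.3) from 2000 variable genes and the first 10 principal components, with 20 neighbours. OVX was cut at resolution 0.3, the remaining libraries at 0.5. The 10 members and 28 other milk secretion genes were left out of the variable genes. Clusters were named from marker genes, none of them a member. The lists used were basal, hormone-sensing, alveolar, shared luminal, fibroblast, hematopoietic, endothelial and proliferation markers. A cell type counted where the marker score was at least 0.25 and at least 3 markers reached 10 CPM. A cluster was called proliferating where at least 50% of its barcodes had at least 2 UMIs of proliferation genes. Genes among the top 10 by fold of a cluster, listed as a description and not used in the naming, needed at least 50 UMIs. These limits were set after the clusters had been seen. A cluster of 24 barcodes in OVX_E2_P4_PBDE stayed unnamed.

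No doublets were removed. Scrublet (scanpy 1.11.5, expected rate 20%, 30 components) called 2.16% to 2.55% of barcodes in 4 libraries and 23.2% in OVX_E2_P4, so the 20% of barcodes with the highest scores were left out as an alternative.

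UMIs were summed per class and library and given as CPM, with exact 95% intervals (Poisson for levels, conditional binomial for ratios, Clopper-Pearson for shares; Python 3.11.15, scipy 1.17.1). A sum of 0 was set against the level of 3 UMIs. With 1 library per group no test was made. Genes with at least 50 UMIs over both sums were assessed at 2-fold. For shares and spread, barcodes were thinned to 3000 UMIs and none were too shallow for this, the lowest having 3374. Likeness was Pearson's r of log2(CPM + 1) over sums of at least 20 barcodes, for genes with at least 200 UMIs, and the text names the 3 genes with the highest r for each member. Otherwise every member was reported, and the milk secretion list by its counts past 2-fold, with only some of its genes named. The members and lists were chosen with earlier results of these data known. The comparison of estradiol with vehicle in alveolar barcodes, and the alternative without the barcode with the most UMIs, were added after the data had been seen. The scripts were tested on simulated data. Gene positions came from GENCODE M21 (GRCm38), promoters from RefSeq. Figures were drawn with matplotlib 3.10.9.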

Additional observations from a re-analysis of the deposited data

Results flagged for a closer look

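For *Wfdc18* and *Spp1* the progesterone ratio in alveolar barcodes pointed in opposite directions without and with PBDEs, and the intervals excluded 1 on both sides. *Wfdc18* was at 1.57 without PBDEs (1.51 to 1.63) and at 0.852 with PBDEs (0.808 to 0.898). *Spp1* was at 2.03 without PBDEs (1.94 to 2.12) and at 0.907 with PBDEs (0.861 to 0.956). The intervals cover counting error only, each side is 1 library against 1 library, and the difference between the ratios was not tested. The mixed luminal barcodes of the same libraries, which are other barcodes but not other mice, gave 1.66 and 0.867 for *Wfdc18* and 2.07 and 0.875 for *Spp1*.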

How the results depend on the processing

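Clustering at resolution 1 kept the 13 progesterone, 13 PBDE, 20 estradiol and 38 alveolar over hormone-sensing ratios within their reported intervals, and so did a mitochondrial limit of 5%. With all variable genes used, 30 of the 38 stayed within them, and all of the other 3 sets. With equal weights 5 of 13 progesterone, 5 of 13 PBDE, 13 of 20 estradiol and 22 of 38 alveolar over hormone-sensing ratios did. In the same order, 11, 12, 10 and 25 did without high Scrublet scores, and 13, 12, 12 and 6 with the fibroblast level subtracted. With mixed luminal barcodes added, 2 of 13, 2 of 13, 2 of 11 and 0 of 38 did. All 38 kept their direction under each of these. Without the top barcode 11 of 13, 11 of 13, 12 of 19 and 25 of 33 stayed within. In the summed libraries 7 members were at least 2-fold higher in alveolar than in hormone-sensing barcodes under each alternative that was counted. Those that leave out 1 or 10 barcodes of a member, or add mixed luminal barcodes, were not among them.

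Counts of members past a fold moved between treatments. For progesterone without PBDEs, where 2 were higher, 1 was higher with barcodes weighted equally or with the fibroblast level subtracted, and 4 at a ratio of 1.5. For progesterone with PBDEs, where 1 was higher, 0 were without the 20% of barcodes with the highest Scrublet scores, without the 10 barcodes with the most UMIs or without the 1 barcode with the most. For PBDEs without progesterone, 1 was higher without 10 barcodes and 2 at 1.5. For PBDEs with progesterone, 1 was lower without 10 barcodes and 1 higher at 1.5.

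For estradiol against vehicle, 5 were lower at 1.5 in alveolar barcodes in place of 3. In mixed luminal barcodes 1 was higher at a minimum of 20 UMIs and 3 lower at 1.5, in place of 0. In hormone-sensing barcodes, in place of 1 lower, 0 were with equal weights, 5 with the fibroblast level subtracted and 3 at 1.5, and 0 were higher with it subtracted in place of 1. In basal barcodes, in place of 1 higher, 0 were without high Scrublet scores and 2 at a minimum of 20 UMIs, and in place of 1 lower, 0 were at a mitochondrial limit of 5% and 2 with the fibroblast level subtracted.

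Leaving out 10 barcodes takes unequal shares, from 10 of 32 alveolar barcodes in OVX to 10 of 579 in OVX_E2_P4, chosen on the value compared, which by construction lowers the level more in the smaller class. Its values are given for completeness and say nothing about stability. The direction was kept by 11 of 16 estradiol, 11 of 13 PBDE and 12 of 12 progesterone ratios without 10 barcodes, and with mixed luminal barcodes added by 9 of 11, 11 of 13 and 12 of 13. Among ratios past 2-fold as reported, those that turned were all in estradiol against vehicle, as log2 ratios. Alveolar *Spp1* went to 2.35 and hormone-sensing *Trf* to 0.23 without 10 barcodes. Hormone-sensing *Wfdc18* went to -1.14 with the fibroblast level subtracted and to -0.057 with mixed luminal barcodes added. Basal *Csn3* went to -0.47 without high Scrublet scores. Apart from the unequal shares, the causes were not tested.

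Depth limits the sparse caseins most, since a sum of 0 in alveolar barcodes of OVX allows 12.9 CPM. With 1 library per group, mice, libraries and treatments cannot be told apart, and no interval covers differences between mice.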
